A study of Mus musculus with 34 samples.

Results

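The H3K9 methyltransferases, their partner Trim28 and the HP1 proteins place, direct and read methylation of H3K9, in constitutive heterochromatin and elsewhere. Here H3K4me3, the mark of promoters in use, was measured at the genes that encode them. The set holds 10 of the 21938 protein-coding genes of GENCODE M21, chosen by name, and each was given the mean H3K4me3 signal within 1000 bp of its annotated 5′ end on mm10. These are the methyltransferase genes Suv39h1, Suv39h2, Ehmt1, Ehmt2, Setdb1 and Setdb2, then Trim28, and the HP1 genes Cbx1, Cbx3 and Cbx5. H3K4me3 was profiled by CUT&RUN, in which an antibody tethers micrococcal nuclease to the mark and the released fragments are sequenced, in cells scraped from the villi of small intestine that looked normal. There were 2 wild-type C57BL/6J libraries and 2 libraries from age-matched ApcMin/+ mice, which carry a truncating germline mutation in 1 copy of Apc in every tissue and develop intestinal tumours. The labels give the age as 5 weeks and the study's methods as 6 weeks. The other samples of the series, 34 in all with these 4, were not analysed here.

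SUV39H1 and SUV39H2 trimethylate H3K9 in pericentromeric chromatin, EHMT1 (GLP) and EHMT2 (G9a) work as a heterodimer that places mono- and dimethylation in euchromatin, and SETDB1 is brought to its targets by KRAB zinc-finger proteins through TRIM28 (KAP1). SETDB2 belongs to the same family as SETDB1. HP1 beta (CBX1), HP1 gamma (CBX3) and HP1 alpha (CBX5) bind methylated H3K9 through a chromodomain and join neighbouring nucleosomes. Promoters of such broadly expressed genes usually lie in CpG islands, and H3K4me3 at CpG islands is placed by SET1 and MLL complexes whose subunits recognise unmethylated CpG.

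The sequence 5′ of 5 members is shown to make the CpG content of these promoters visible, because the annotated 5′ end used for Trim28 proved to be of another kind. Each is written 5′ to 3′ in the direction of the gene, from the reference GRCm38.p6 (mm10), in lower case with every CpG in capitals. The Cbx3 stretch, chr6:51470110-51470359 on the plus strand, is the 250 bases before the 5′ end of the member with the highest mean level relative to the median promoter, and it holds 19 CpG. The Cbx1 stretch, chr11:96788877-96789126 on the plus strand, holds 14, and the Suv39h1 stretch, chrX:8074761-8075010 on the minus strand, holds 11.
Cbx3: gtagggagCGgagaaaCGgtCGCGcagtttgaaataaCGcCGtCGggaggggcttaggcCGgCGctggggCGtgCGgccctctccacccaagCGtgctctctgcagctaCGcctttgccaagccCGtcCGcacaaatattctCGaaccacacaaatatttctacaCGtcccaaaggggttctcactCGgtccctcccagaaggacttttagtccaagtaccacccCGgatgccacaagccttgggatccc
Cbx1: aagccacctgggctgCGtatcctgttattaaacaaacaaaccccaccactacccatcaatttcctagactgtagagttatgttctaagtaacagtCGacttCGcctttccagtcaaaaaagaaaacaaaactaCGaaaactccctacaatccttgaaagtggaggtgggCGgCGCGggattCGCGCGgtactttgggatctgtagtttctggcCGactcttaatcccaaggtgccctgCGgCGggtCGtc
Suv39h1: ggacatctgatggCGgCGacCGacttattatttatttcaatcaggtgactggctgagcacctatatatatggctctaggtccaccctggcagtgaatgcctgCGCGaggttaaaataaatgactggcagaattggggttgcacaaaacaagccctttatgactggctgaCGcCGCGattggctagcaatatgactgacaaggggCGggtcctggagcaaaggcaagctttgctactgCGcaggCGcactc
Setdb2 and Cab39l are transcribed away from each other, with 5′ ends 88 bp apart. The 78 bases between their annotated exons, chr14:59440885-59440962, are given on the strand of Setdb2 and hold 12 CpG.
Setdb2-Cab39l: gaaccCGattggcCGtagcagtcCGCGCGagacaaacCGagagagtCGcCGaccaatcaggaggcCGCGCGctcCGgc
For Trim28 there are 2 stretches of 250 bases. The gene's annotated 5′ end is that of a non-coding processed transcript, and the bases before it, chr7:12998864-12999113, hold 1 CpG. The only protein-coding Trim28 transcript starts 25038 bp downstream, and the bases before that start, chr7:13023902-13024151, hold 17.
Trim28 gene 5′ end: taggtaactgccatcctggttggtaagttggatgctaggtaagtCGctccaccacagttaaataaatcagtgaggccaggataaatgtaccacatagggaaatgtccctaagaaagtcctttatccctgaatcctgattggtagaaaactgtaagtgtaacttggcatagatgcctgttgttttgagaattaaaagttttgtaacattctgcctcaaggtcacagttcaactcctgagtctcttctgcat
Trim28 coding start: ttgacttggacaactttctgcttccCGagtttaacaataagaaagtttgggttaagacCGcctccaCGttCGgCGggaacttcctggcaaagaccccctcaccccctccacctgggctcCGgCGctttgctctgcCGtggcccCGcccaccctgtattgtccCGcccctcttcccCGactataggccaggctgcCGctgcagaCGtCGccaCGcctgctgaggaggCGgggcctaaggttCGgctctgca
No annotated exon of GENCODE and no curated RefSeq exon overlaps these stretches. Within 1000 bp of the 5′ end, 9 of the 10 members had more CpG than the median protein-coding gene, which had 61. Over the promoters with enough signal to be tested, the median was 91, above the counts of Setdb1 and Setdb2. The counts ran from 78 at Setdb1 and 86 at Setdb2 to 208 at Cbx3, whereas the Trim28 gene end had 15 and its coding start 176. RefSeq holds 300-base promoter entries for all 10 members, 14 entries in all. The letters GGGCGG, the core of a GC box, occurred on either strand in 12 of these 14, from 9 members, and in 35.7% of all 32851 entries. GGGCGG itself holds a CpG, and the member entries held 8 to 40 CpG against a median of 7 over all entries. The comparison was not matched for CpG content. None of the 14 held TATAAA, which occurred in 13.6% of all entries, and CCAAT occurred in 4, against 37.4% of all. These matches describe letters in a window and say nothing about a bound factor.

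The deposited values are coverage that the authors scaled to a common number of tags, called signal here. The wild-type libraries held 1430000 (replicate 1) and 4790000 tags (replicate 2), the ApcMin/+ libraries 3700000 and 5470000. Of the 21938 promoters, 9930 reached a mean signal of 2 over the 4 libraries and were tested, among them 9 members, all but Trim28 at its gene 5′ end. ApcMin/+ replicate 1 stood apart from the other 3 libraries. It had the highest signal of the 4 at 98.6% of tested promoters. Of its signal, 43.3% lay in enriched regions against 11.9% to 22.6% in the others. Tested promoters and regions were both chosen on the mean of the 4 libraries, so these shares favour the library with the highest signal. The background of ApcMin/+ replicate 1 was 0.190 against 0.268 to 0.314 in the others. The median tested promoter held 12.97, 29.3, 97.7 and 45.7 fragments in the order wild-type replicates 1 and 2, ApcMin/+ replicates 1 and 2, and this order is kept for every set of 4 values below. Values are therefore given on the authors' scale and also relative to the median tested promoter of each library, as log2(signal + 1), called centred. In bulk chromatin, fewer cells with the mark and less of it per cell cannot be told apart.

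Enterocyte markers carried the mark. A mean signal of 2 was reached by 10 of 12 enterocyte genes, 5 of 8 crypt and proliferation genes and 0 genes of the secretory, mesenchymal and silent lists. Among all protein-coding genes, 9930 of 21938 reached it. Summed over 12 enterocyte genes, from Anpep, the lowest, to Vil1, the highest, the signal was 69.1, 40.4, 190 and 53.1. The 8 crypt and proliferation genes, lowest at Olfm4 and highest at Top2a, summed to 23.6, 15.6, 74.9 and 26.9. Per genotype, the summed range was 4.27 to 10.2 in wild-type and 8.60 to 10.3 in ApcMin/+ libraries for 8 secretory genes (Defa24 lowest, Spdef highest). It was 3.14 to 4.29 and 5.49 to 6.08 for 7 mesenchymal genes (Pdgfra lowest, Vim highest). The 8 genes silent in gut (Cga lowest, Myod1 highest) summed to 2.14 to 4.53 over the 4 libraries. Their part in the results was not tested.

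**Figure D1:**
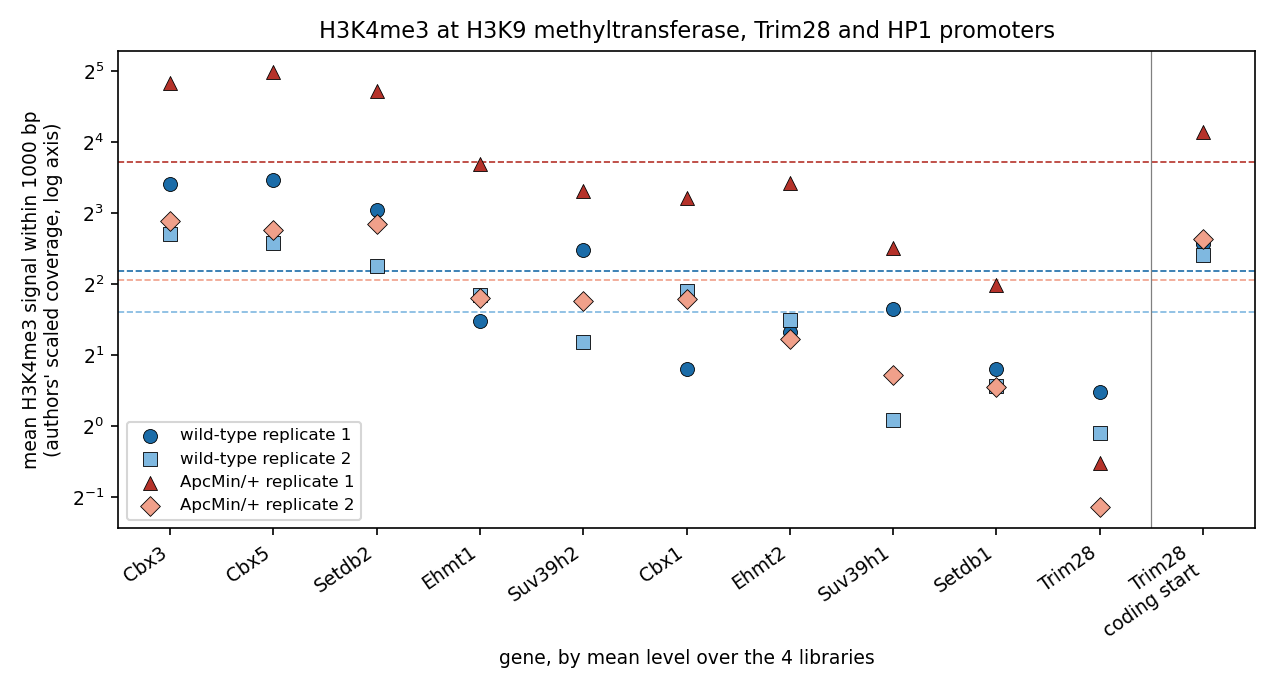
Mean H3K4me3 signal within 1000 bp of the 5′ end (vertical axis, authors' scale, logarithmic) for the 10 genes and for the Trim28 coding start, 1 point per library; dashed lines mark the median tested promoter of the library with that colour. Cbx3, Cbx5 and Setdb2 lie above the line of their library in all 4 libraries, and the Trim28 gene 5′ end lies below it in all 4.

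Cbx3, Cbx5 and Setdb2 had the most H3K4me3 of the 10. At Cbx3 (chromosome 6, 5′ end 51470360) the signal was 10.7, 6.52, 28.5 and 7.40, from 30.5, 62.4, 211 and 81.0 fragments. At Cbx5 (chromosome 15, 103239816) it was 11.02, 5.98, 31.6 and 6.79. At Setdb2 (chromosome 14, 59440884) it was 8.29, 4.78, 26.4 and 7.21. In each of the 3, ApcMin/+ replicate 1 was highest and wild-type replicate 1 was above ApcMin/+ replicate 2, so the genotypes overlapped. Among all protein-coding promoters, Cbx3 stood at percentile 98.0, 98.97, 97.5 and 96.8. Cbx3 was at 20.7 to 150 times the background of the library, and Setdb2 at 15.2 to 139 times.

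At their gene 5′ ends, the other methyltransferase genes and Cbx1 were on average below the median tested promoter. Ehmt1, encoding GLP (chromosome 2, 24919614), had 2.79, 3.61, 12.9 and 3.49, and its partner Ehmt2, encoding G9a (chromosome 17, 34898469), had 2.51, 2.81, 10.8 and 2.34. Suv39h2 (chromosome 2, 3475031) had 5.58, 2.28, 9.96 and 3.38, and Suv39h1 (chromosome X, 8074760) had 3.14, 1.06, 5.71 and 1.64. Suv39h2 was thus above Suv39h1 in all 4 libraries. Cbx1 (chromosome 11, 96789127) had 1.74, 3.75, 9.33 and 3.47, with 4.99 fragments in wild-type replicate 1, and was above Setdb1 in the other 3 libraries. Setdb1 (chromosome 3, 95357202) was the lowest tested member, with 1.74, 1.48, 3.97 and 1.46 from 4.99, 14.1, 29.4 and 16.0 fragments, which leaves a large counting error.

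Trim28 depended on which start was taken. At its gene 5′ end (chromosome 7, 12999114) the signal was 1.39, 0.939, 0.701 and 0.457, from 3.99, 8.99, 5.19 and 5.00 fragments, or 1.6 to 5.2 times background. At the start of its coding transcript (13024152) the signal was 5.93, 5.31, 17.7 and 6.25, from 17.0, 50.8, 131 and 68.4 fragments. The coding start was above the gene end in all 4 libraries and above the median tested promoter in all 4. The gene end lies 922 bp from the 5′ end of Slc27a5, which encodes a bile acid and fatty acid CoA ligase and is read in the other direction, and no 5′ end of another gene lies within 1000 bp of the coding start. The remaining 8 annotated Trim28 starts, all of retained-intron transcripts, had mean signals over the 4 libraries from 0.61 to 3.19.

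For the other members the choice mattered less. Of the 17 annotated starts of Ehmt1, the 8 within 40 bp of the gene 5′ end had mean signals of 5.71 to 5.80 and the 9 internal ones 0.12 to 0.88. Cbx5 has a second group of coding starts about 24 kb downstream, and at one of them (103215352) the signal was 1.36, 0.209, 1.89 and 0.722, against 5.98 to 31.6 at the gene 5′ end. Ehmt2 gained most after Trim28: at its start 502 bp downstream the signal was 4.53, 4.82, 17.0 and 4.65. Relative to the median promoter, each promoter taken at its start of highest signal, these were −0.014, 0.48, 0.27 and 0.088. Its level relative to the median promoter thus depended on the start taken. At a coding start 30 bp downstream of the gene 5′ end the signal was 2.79, 2.95, 11.1 and 2.47.

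The genes were ordered by the mean over the 4 libraries of the centred level at the gene 5′ end. Cbx3 came first (0.93 ± 0.18, SD, n = 4), then Cbx5 (0.92 ± 0.29) and Setdb2 (0.72 ± 0.19). Ehmt1 (−0.15 ± 0.31), Suv39h2 (−0.17 ± 0.28), Cbx1 (−0.36 ± 0.52) and Ehmt2 (−0.41 ± 0.28) followed. Suv39h1 (−0.86 ± 0.30), Setdb1 (−1.08 ± 0.33) and the Trim28 gene end (−1.79 ± 0.91) closed the order. The step from Setdb2 to Ehmt1 (0.87 ± 0.40) and the step from Setdb1 to Trim28 (0.71 ± 0.60) were the 2 that kept their direction in 4 of 4 libraries. Cbx3 and Cbx5 differed by 0.01 ± 0.12, and the steps among Ehmt1, Suv39h2, Cbx1, Ehmt2, Suv39h1 and Setdb1 were all smaller than their SD. The step from Cbx5 to Setdb2 (0.20 ± 0.19) was about its SD. The protein-coding promoters nearest to the median of the 10 members over the 4 libraries were Tlr3, Pdk1 and Wdr25, at Euclidean distances of 0.070, 0.089 and 0.094 on the log2(signal + 1) scale.

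**Figure D2:**
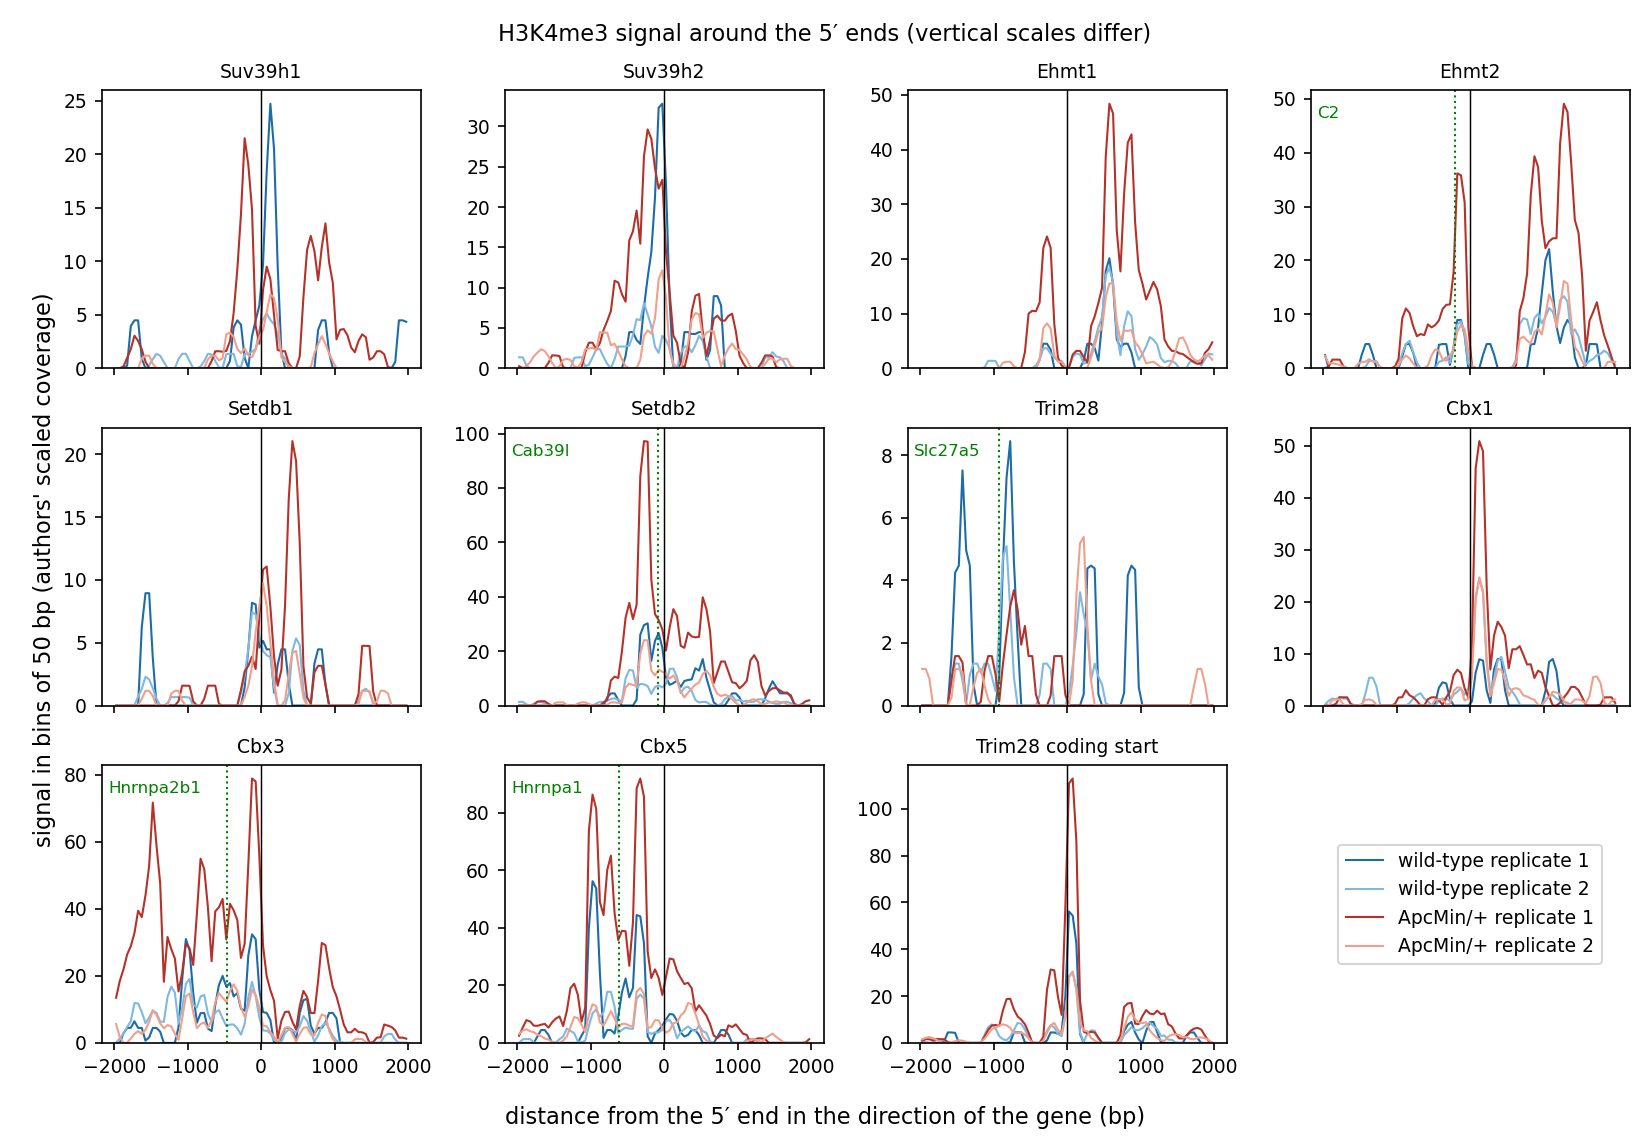
H3K4me3 signal in bins of 50 bp (vertical axis, authors' scale) against distance from the 5′ end in the direction of the gene, from −2000 to 2000 bp, 1 line per library; a black line marks the 5′ end and a dotted green line that of a neighbouring gene. At Cbx3 and Cbx5 the signal extends over the 5′ end of the neighbour, and at Ehmt2 a gap follows the 5′ end.

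The members with the most signal share their promoter window with another gene. A protein-coding gene read in the other direction starts within 1000 bp upstream of 5 members, against 6.78% of all protein-coding genes and 13.6% of those tested. Cbx3 faces Hnrnpa2b1 at 466 bp and Cbx5 faces Hnrnpa1 at 616 bp, both encoding abundant RNA-binding hnRNP proteins, and the first pair is known as a ubiquitous chromatin opening element. Setdb2 faces Cab39l, a scaffold of the LKB1 kinase, at 88 bp, Ehmt2 faces the complement gene C2 at 204 bp, and the fifth is the Trim28 gene end. Over all tested promoters, the medians were 6.17, 4.06, 18.9 and 5.57 with such a neighbour and 4.18, 2.92, 12.4 and 3.99 without. In a shared window the signal of the member and that of its neighbour cannot be told apart.

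The side of the 5′ end on which the signal lay differed between members. Over the mean of the 4 libraries, 4 of the 10 members had more signal in the 1000 bp downstream than in the 1000 bp upstream, namely Suv39h1, Ehmt1, Setdb1 and Cbx1, none with such a neighbour. The downstream share was 86.3% at Cbx1, 79.3% at Ehmt1, 70.2% at Setdb1 and 62.8% at Suv39h1. It was 21.9% at Cbx5, 25.7% at Cbx3 and 43.5% at Setdb2, where the upstream side runs into the neighbour. Suv39h2, with no such neighbour, had 33.9%. Each of these 8 was on the same side in 4 of 4 libraries. At Ehmt2 the side changed between libraries (41.3% to 55.6%), and the 500 bp after its 5′ end had a mean signal of 0.365 against 7.39 in the 500 bp before it, with the highest bin 1200 bp downstream.

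Enriched regions were called once on the mean of the 4 tracks. The longest region at a member was that of Cbx3, 3400 bp from 2259 bp upstream to 1140 bp downstream, which takes in the 5′ end of Hnrnpa2b1. Cbx5 had 2900 bp, Ehmt1 2600 bp and Setdb2 2500 bp. Suv39h2 had 1900 bp, Cbx1 1600 bp and Suv39h1 1400 bp, and Setdb1 was shortest with 800 bp. Ehmt2 had 2 regions of 1000 and 1300 bp on either side of its gap, and the Trim28 gene end had only a region of 800 bp that ended upstream of it, over the 5′ end of Slc27a5. The Trim28 coding start lay in a region of 3000 bp. The median over the 10 was 1750 bp, beside 1800 bp over the 12777 promoters with a region and 2000 bp over those tested.

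**Figure D3:**
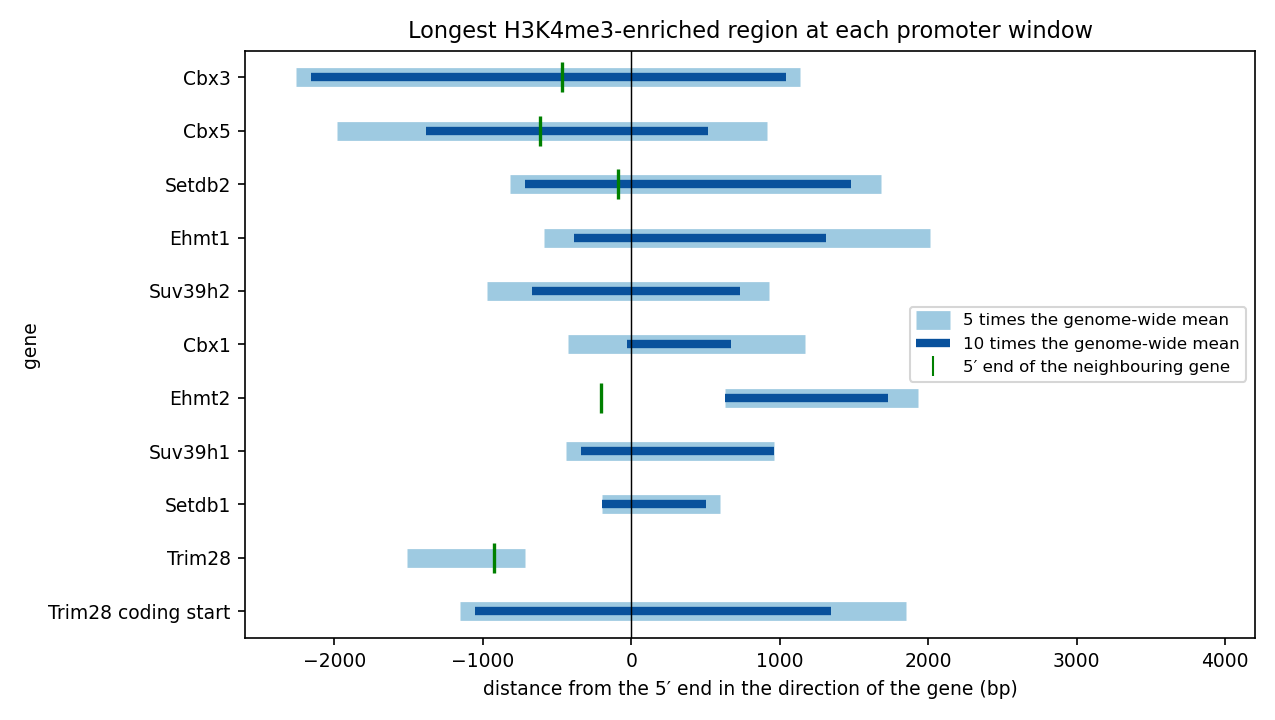
Longest enriched region at each promoter window, drawn as bars against distance from the 5′ end in bp, at 5 (pale) and 10 (dark) times the genome-wide mean; green ticks mark the 5′ end of a neighbouring gene. The Cbx3 region spans 3400 bp, and the region at the Trim28 gene 5′ end ends upstream of it; the shorter region of Ehmt2 is not drawn.

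The comparison between genotypes asked whether H3K4me3 at these promoters differs in ApcMin/+ villi. None of the 9 tested members passed the test on the authors' scale (limma on log2(signal + 1) over all 9930 promoters, Benjamini-Hochberg adjusted p 0.683 for each), and 0% of all promoters did, 132 of them having an unadjusted p under 0.05. All 9 had a higher ApcMin/+ than wild-type mean, as did 99.2% of tested promoters. The filter is a mean over all 4 libraries, so both counts include promoters that passed through the genotype where they were higher, such as Setdb1, with a mean signal of 1.61 ± 0.189 (SD, n = 2) in wild-type and 2.71 ± 1.77 in ApcMin/+ libraries. The largest difference was 1.03 ± 1.25 (SE) at Setdb2 and the smallest 0.42 ± 0.62 at Setdb1, both smaller than their error. In no tested member were both ApcMin/+ libraries above both wild-type libraries, beside 38.5% of tested promoters. Where ApcMin/+ replicate 2 was set alone against the wild-type mean, it was higher at 3 of 9, Ehmt1 (0.10), Setdb2 (0.16) and Cbx1 (0.31), beside 66.5% of tested promoters. Without ApcMin/+ replicate 2 instead, 5 of the 9 passed the test, Suv39h1, Suv39h2, Ehmt1, Ehmt2 and Cbx1, all higher in the remaining ApcMin/+ library, beside 65.2% of tested promoters, and the differences ran from 0.93 at Setdb1 to 1.90 at Setdb2.

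Relative to the median promoter the 9 members lay on both sides of 0. The shift of the median promoter between genotypes was 0.85, and the median over the 9 members was 0.78, or −0.07 after centring. Centred means were higher in ApcMin/+ at 3 of 9, Setdb2 (0.18 ± 0.30), Ehmt1 (0.07 ± 0.31) and Cbx1 (0.06 ± 0.34), beside 48.8% of tested promoters. They were lower at Cbx5 (−0.05 ± 0.32), Ehmt2 (−0.07 ± 0.35), Cbx3 (−0.10 ± 0.32), Suv39h2 (−0.28 ± 0.31), Suv39h1 (−0.33 ± 0.48) and Setdb1 (−0.43 ± 0.58), so these 6 changed sign with the scale. No member passed the test (limma, adjusted p 0.9995 for each, and 0 with an unadjusted p under 0.05 on either scale), and 0.121% of promoters did, 12 in number. The centred values of the 2 genotypes did not overlap at 1 of the 9, Setdb1, which was lower in both ApcMin/+ libraries (−1.51 and −1.07) than in both wild-type libraries (−1.01 and −0.71). Such a pattern was found at 14.3% of tested promoters, and the opposite one at 13.1% and at none of the 9. Centring takes the same shift from every promoter of a library, whatever its level. The Trim28 gene end, near background, had centred values of −1.21, −1.07, −3.06 and −1.83. Setdb1 was the lowest tested member, and the part of its low level in this pattern was not tested.

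**Figure D4:**
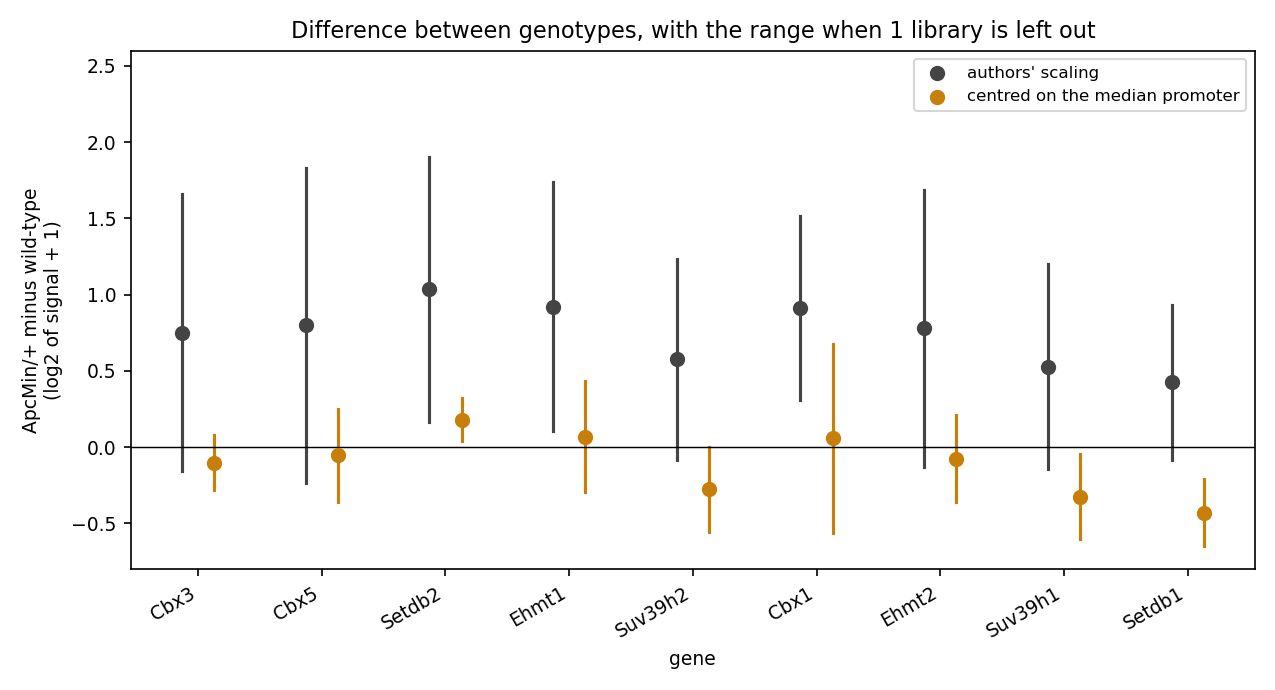
ApcMin/+ minus wild-type difference in log2(signal + 1) for the 9 tested genes, on the authors' scale and centred on the median promoter; lines span the values obtained when each library is left out in turn. On the authors' scale the points run from 0.42 to 1.03 and on the centred scale from −0.43 to 0.18.

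Trim28 was below the level for testing at its gene 5′ end. There both ApcMin/+ libraries were below both wild-type libraries on the authors' scale, with a mean of 0.579 ± 0.172 (SD, n = 2) against 1.17 ± 0.322. Each library had 9 fragments or fewer. The share of all promoters with this pattern on this scale was not counted, so the pattern is not read as a difference at Trim28. At the coding start the mean was 12.0 ± 8.09 in ApcMin/+ and 5.62 ± 0.435 in wild-type libraries, a limma difference of 0.82 ± 1.20 (SE) on the log2 scale and −0.07 ± 0.28 when centred, so the sign changed with the scale and neither passed the test (adjusted p 0.682 and 0.9998, limma). The centred values at the coding start were 0.31, 0.60, 0.32 and 0.45, and the genotypes overlapped.

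**Figure D5:**
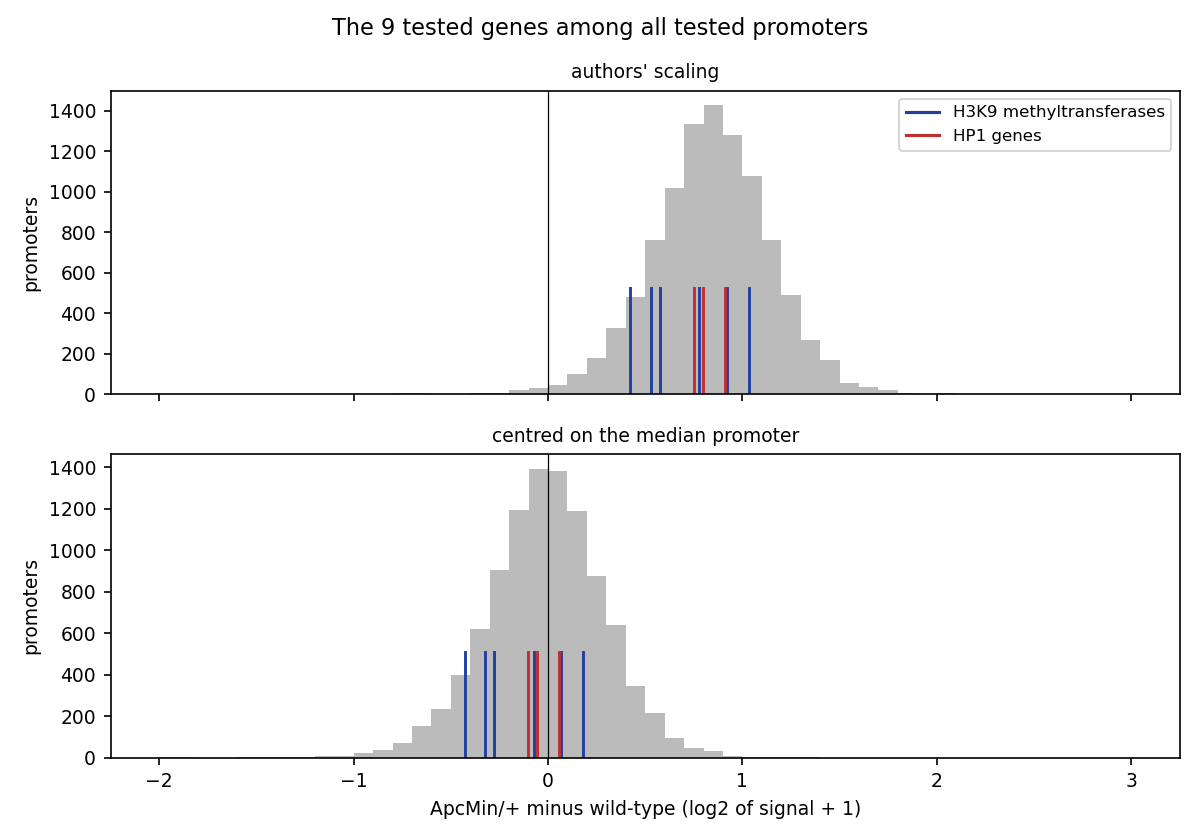
Number of tested promoters (vertical axis) by ApcMin/+ minus wild-type difference in log2(signal + 1), on the authors' scale (top) and centred (bottom), with the 9 tested genes as vertical lines. The members lie within the bulk of the 9930 promoters on both scales, with medians of 0.78 and −0.07.

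Other genes of H3K9 methylation and heterochromatin were examined from a list of 31, of which 27 were tested. All 27 had a higher ApcMin/+ mean on the authors' scale and 10 did after centring, beside 99.2% and 48.8% of all tested promoters. On the authors' scale 5 had both ApcMin/+ libraries above both wild-type libraries, beside 38.5%. Of the 27, 0 passed limma's test on either scale (0 had an unadjusted p under 0.05). Their median difference was 0.78, or −0.07 centred. Daxx, a histone H3.3 chaperone, had the highest signal of the list with 14.4, 5.98, 32.1 and 7.34, followed by the H3K9 demethylase gene Kdm4a (10.1, 5.40, 28.2 and 5.29) and the HUSH subunit gene Mphosph8 (10.5, 3.67, 23.7 and 7.49). The lowest at their gene 5′ ends were Atf7ip, a partner of SETDB1, Mecom and Kdm4c, each below 1 in every library. Within 1000 bp of these ends lay 10, 28 and 14 CpG, against a median of 91 over tested promoters. Signal at their other annotated starts is not given here, so these values describe the 5′ ends used and not the genes.

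By sublist, centred means were higher in ApcMin/+ libraries at 3 of 7 tested demethylases, 3 of 4 HUSH subunits and 0 of 3 methyltransferase partners. They were higher at 2 of 11 heterochromatin partners and 2 of 2 other PR/SET genes, beside 48.8% of all tested promoters. Over the 27 tested genes, 5 had both centred ApcMin/+ values below both wild-type values, beside 14.3% of all tested promoters, and 1 had both above, beside 13.1%. The 5 were Lbr, Chaf1b, Atrx, Incenp and Adnp and the 1 was Chaf1a, all from the sublist of heterochromatin partners. These 6 genes were named after their values were seen, and none passed the test.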

How the data were processed

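H3K4me3 CUT&RUN tracks of 2 wild-type and 2 ApcMin/+ libraries were analysed, grouped by GEO's labels, which number the replicates. Per the methods and the labels, the authors trimmed read pairs, aligned them to mm10 with Bowtie2, removed duplicates with Picard and reads of low mapping quality, kept fragments of nucleosome size and wrote coverage with HOMER. The deposited values are this signal, which the authors normalised to 10000000 tags and to fragment length, with no control subtracted and no replicates pooled. A coverage track is no table of counts, and no count model was fitted.

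Signal was averaged within 1000 bp of each gene 5′ end (GENCODE M21, protein-coding, 21 chromosomes). Fragments were obtained by dividing summed signal by the signal of 1 tag, and they cover counting error only. Promoters with a mean of at least 2 were tested two-sided with limma 3.58.1 with a trend (R 4.3.3) on log2(signal + 1), Benjamini-Hochberg adjusted, at 0.05. The code was tested on simulated data. The methods give 2 mice per genotype but the labels do not tie a library to a mouse, so p-values measure only the spread between these samples, which may be technical. Enriched regions were runs of 100-bp bins of the mean track that exceeded the genome-wide mean 5 times, with gaps of up to 500 bp closed and a length of 300 bp or more. Background was the signal outside them and over 5000 bp from any 5′ end. Tracks were read and figures drawn in Python 3.11.15 (matplotlib 3.10.9, numpy 2.4.6, pandas 2.3.3).

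The members and lists were chosen with earlier results of these data known. The text names every member, genes starting within 1000 bp of one, the 3 highest and 3 lowest genes of the list of other heterochromatin genes, the 3 promoters most like the members' median, and the extremes of each marker list, except 1 list that is not reported here. Genes on 1 chromosome were left out of these lists. Alternatives covered scaling, window, filter, pseudocount (0.1 and 5), transcript start, a replicate block and leaving out each library. The pair of transcript start and centring was added after seeing the data.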

Additional observations from a re-analysis of the deposited data

How the results depend on the processing

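Under the other windows, filters, pseudocounts, the scaling to background and the transcript start of highest signal, 0 promoters were called and each tested member had a higher ApcMin/+ mean, except Trim28 at its gene end, which was tested only with no filter and was lower. A mean signal of at least 5 left 5 members, all 5 higher. Centring, quantile normalization and leaving out ApcMin/+ replicate 1 each changed the direction at most tested members. Setdb2 kept its direction in all 21 alternatives, and the other tested members were reversed in 3 to 9 of them. Centred on the median promoter, 12 promoters were called, the members' median was −0.075 and 3 were higher. The values were −0.33 at Suv39h1, −0.28 at Suv39h2, −0.075 at Ehmt2, −0.43 at Setdb1, −0.10 at Cbx3 and −0.054 at Cbx5. After quantile normalization 2 promoters were called, the median was −0.15 and 2 members were higher, with −0.20 at Suv39h1, −0.21 at Suv39h2, −0.0083 at Ehmt1, −0.16 at Ehmt2, −0.30 at Setdb1, −0.15 at Cbx3 and −0.092 at Cbx5. With the transcript start of highest signal and centring, an alternative chosen after seeing the data, 13 promoters were called, the median of 10 members was −0.080 and 2 were higher, with −0.29 at Suv39h1, −0.31 at Suv39h2, −0.057 at Ehmt2, −0.46 at Setdb1, −0.068 at Cbx1, −0.14 at Cbx3 and −0.088 at Cbx5.

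The replicate numbers are shared between genotypes but name different mice, and the deviations of same-numbered libraries from their group means correlated at 0.20 across the tested promoters. With a replicate block 1 promoter was called on the authors' scale and 15 after centring, where the median was again −0.075, 3 members were higher, and the 6 values that were negative after centring (Suv39h1 −0.33, Suv39h2 −0.28, Ehmt2 −0.075, Setdb1 −0.43, Cbx3 −0.10, Cbx5 −0.054) stayed so. No member was called with the block.

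Leaving out each library in turn, on either scale, gave 0 to 6479 called promoters, a members' median from −0.21 to 1.66 and 2 to 9 higher members. The 6479 came without ApcMin/+ replicate 2 on the authors' scale, and without ApcMin/+ replicate 1 there were 0. The ranges were −0.61 to 1.20 at Suv39h1, −0.56 to 1.24 at Suv39h2, −0.30 to 1.74 at Ehmt1, −0.36 to 1.69 at Ehmt2, −0.65 to 0.93 at Setdb1, 0.04 to 1.90 at Setdb2, −0.56 to 1.52 at Cbx1, −0.28 to 1.66 at Cbx3 and −0.36 to 1.83 at Cbx5. Where 1 library was left in a genotype, it was taken to vary like the other genotype. The median length of the members' enriched regions (1400 to 2200 bp) and the number of members with more signal downstream (4 or 5) stayed within 1.5 times. Single lengths moved more: at 10 times the genome-wide mean Cbx1 fell to 700 bp, Cbx5 to 1900 bp, Ehmt1 to 1700 bp and the Trim28 gene end had no region, and with gaps of 1000 bp closed Ehmt2 had 2900 bp and the Trim28 gene end 1800 bp. Depth limits Setdb1, Cbx1 and the Trim28 gene end most, with 5 fragments or fewer in wild-type replicate 1. The cause of the difference between the ApcMin/+ libraries was not tested.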
